A study of Mus musculus with 6 samples.

Results

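The cytosolic ribosomal protein genes encode the proteins of the 40S (small) and 60S (large) subunits of the ribosome that translates nuclear mRNAs. They were described here in primary mouse hepatocytes of 2 genotypes, WT and S100a16KO+/-, both given alcohol. The genes were taken by name from the deposited expression table, as symbols made of Rpl or Rps, a number and a short suffix (a, x, y or l), together with Rpsa, Rplp0, Rplp1 and Rplp2. Pseudogene names marked -ps and the Rps6k kinases were left out. This rule found 87 of 25718 genes, 35 of the 40S and 52 of the 60S subunit. In the GENCODE annotation of GRCm38, 82 of them were protein-coding, 4 were processed pseudogenes (Rpl6l, Rpl32l, Rps3a2 and Rps3a3) and Rps4l was a transcribed processed pseudogene.

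RNA was sequenced from 3 hepatocyte libraries of each genotype, to ask how S100A16, an EF-hand calcium-binding protein, affects gene expression while lipid accumulates. All donors were male mice of 8 to 10 weeks that had a control liquid diet for 5 days, a liquid diet with 5% ethanol for 10 days and then 1 ethanol gavage of 5 g/kg, 9 h before collection. S100a16KO+/- mice carry 1 deleted S100a16 allele. It was made from an allele with exons 2 to 3 between loxP sites by EIIa-Cre, a transgene active in the early embryo, so that the deletion is not limited to hepatocytes, and the background was over 98% C57BL/6. Homozygous mutants were not viable and were not sequenced. The sample labels call the genotype S100A16 knockdown. No source states whether the 3 libraries of a genotype came from 3 mice, so p-values measure the spread between these libraries, which may be partly technical.

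The estimated counts of a library added up to between 67658095 and 71807834. S100a16 itself had 1001, 1056 and 1107 counts in the WT replicates against 433, 390 and 366 in the S100a16KO+/- replicates, a log2 fold change of -1.40 (SE 0.11, edgeR adjusted p = 4.14e-07). Hepatocyte markers summed to between 110348.5 and 125553 CPM in the 6 libraries, where CPM is a count scaled to library size with TMM, edgeR's correction for library composition, and 1 of these 8 markers rose and 2 fell in S100a16KO+/- libraries. Other cells were present at low levels and not equally: summed markers of sinusoidal endothelial cells were 236 to 249 CPM in WT and 341 to 349 CPM in S100a16KO+/- libraries, those of stellate cells 54.6 to 59.3 and 90.7 to 106 CPM, and those of red cells 215 to 252 and 23.4 to 26.3 CPM. Of these lists, 7 of 8 endothelial genes rose and 1 fell, 4 of 8 stellate genes rose and 5 of 5 tested red cell genes fell. Of 8 Kupffer cell and macrophage genes 2 rose, and 1 gene fell in each of the lymphocyte and cholangiocyte lists. No neutrophil gene passed the edgeR test, and 1 had an unadjusted p under 0.05. The defining markers Cftr (cholangiocyte) and Ly6g (neutrophil) were at or under 12 counts in every library. The part of these cells in the ribosomal protein levels was not tested, and in bulk RNA fewer cells of a type cannot be told apart from less RNA per cell.

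A ribosome is built from a few ribosomal RNAs and from ribosomal proteins that are, with few exceptions, needed in equal numbers, so the genes are expressed together and strongly in cells that make much protein, hepatocytes among them. Their mRNAs typically begin with a C followed by a run of pyrimidines (the terminal oligopyrimidine, or TOP, motif), through which mTORC1 and LARP1 set how well they are translated and how long they last. Mammalian genomes also hold many processed copies of these genes, which can share reads with them.

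The start of the transcript is shown for 6 genes because the TOP motif is the feature that these genes are known to share. Each stretch runs 30 bases across the annotated start in RefSeq (GRCm38.p6), on the transcribed strand, with the annotated start after the first 15 bases, and capitals mark a run of C or T of at least 5 bases that begins with C.
Rps6: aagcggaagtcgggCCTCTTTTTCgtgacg
Rpl34: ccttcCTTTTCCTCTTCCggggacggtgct
Rps10: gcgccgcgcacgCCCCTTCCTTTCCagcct
Rpl35: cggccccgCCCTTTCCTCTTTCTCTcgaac
Rpl10: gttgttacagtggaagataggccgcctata
Rplp0: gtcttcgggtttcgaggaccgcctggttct
The Rps6 stretch is chr4:86857353-86857382 on the minus strand, that of Rpl34 chr3:130730323-130730352 (minus) and that of Rps10 chr17:27635230-27635259 (minus). Rpl35 is read from chr2:39005117-39005146 (minus), Rpl10 from chrX:74270801-74270830 (plus) and Rplp0 from chr5:115559452-115559481 (plus). The run was sought within 10 bases on either side of the annotated start, on the transcribed strand only, and is marked only inside that window. Rpl34 has another annotated start, not shown. RefSeq starts were matched for 63 of the 87 genes, with 75 starts, and 36 of these starts (48.0%) held such a run, against 8365 of 32851 starts (25.5%) over all genes. Among starts of the genes called between genotypes 8 of 11 (72.7%) held a run, and among those of the other ribosomal protein genes 28 of 64 (43.8%), a description with no test. Rpl10 and Rplp0, which rose in S100a16KO+/- hepatocytes, were exceptions among the called genes, with no run in this window. TATAAA stood in the 40 bases before 1 of the 75 starts (1.33%) and before 2.31% of all starts.

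In WT and S100a16KO+/- hepatocytes alike, ribosomal protein mRNAs took about the same small part of the sequenced RNA. They made up 0.757%, 0.814% and 0.870% of the counts in WT replicates 1, 2 and 3 and 0.902%, 0.798% and 0.931% in S100a16KO+/- replicates 1, 2 and 3. The groups overlapped, since S100a16KO+/- replicate 2 lay below WT replicates 2 and 3. Summed over the 87 genes and scaled by TMM, the level was 7957, 7910 and 8598 CPM in WT and 8813, 8423 and 8950 CPM in S100a16KO+/- libraries. The means of 8155 ± 384 and 8729 ± 273 CPM (SD, n = 3) differed by a ratio of 1.07, with S100a16KO+/- replicate 2 below WT replicate 3.

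Levels per length spread widely among the 87 genes. By FPKM, which divides by transcript length, 77 had a mean of at least 10 and 11 a mean of at least 100. The highest was Rplp1, an acidic protein of the 60S stalk that binds translation factors, with 233, 285 and 292 FPKM in WT and 296, 237 and 314 FPKM in S100a16KO+/- libraries. WT replicate 1 and S100a16KO+/- replicate 2 were the low libraries in each genotype, and the groups overlapped. Rps3a1 (168 FPKM), Rps15 (166 FPKM), Rpl4 (143 FPKM) and Rpl36 (142 FPKM) followed by their mean over the 6 libraries. None of these 5 passed the test for a genotype difference: their log2 fold changes were 0.06, 0.11, 0.12, 0.11 and 0.14, and the smallest adjusted p (edgeR) was 0.126, for Rpl4. At the other end, Rpl3l, the muscle form of Rpl3, had counts of 0, 0 and 10 in WT and 0, 0 and 5 in S100a16KO+/- libraries. Rpl10l, the testis form of Rpl10, had 1 count in a single library. Both lay under the 12 counts (3 fragments of about 4 counts) that a count of 0 allows. Neither passed filterByExpr, the edgeR filter on low counts, so 85 of the 87 genes were tested.

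Between genotypes the ribosomal protein genes moved little. In edgeR's quasi-likelihood test (two-sided, adjusted p under 0.05), 12 of the 85 tested genes rose and 1 fell in S100a16KO+/- hepatocytes, or 15.3%, where 22.8% of all 15957 tested genes were called, 11.6% higher and 11.2% lower. Among the 2781 genes that averaged 32 CPM or more, as 73 of the ribosomal protein genes did, 48.4% were called, 21.5% higher and 26.9% lower. With both directions counted together, the called share of the 85 ribosomal protein genes was under both of these backgrounds. By direction, 12 of 85 higher was a larger share than the 11.6% of all tested genes, and 1 of 85 lower a smaller share than the 11.2%. Against the abundant genes both were smaller shares, under the 21.5% higher and the 26.9% lower. The background of abundant genes was set against all 85 genes, not only the 73 of that level. Their log2 fold changes ran from -0.50 to 0.55 with a median of 0.09, against 0.01 over all tested genes, and 68 of 85 were above 0. The estimates were also narrow: for 72 of 85 genes the 95% interval lay within a fold change of 1.5 in either direction. No ribosomal protein gene met the criterion of an unadjusted p under 0.05 with a fold change of at least 2, which 4.52% of all tested genes met. An unadjusted p under 0.05 was reached by 19 of the 85, against 33.6% of all tested genes. The genotypes did not overlap for 13 genes that were higher and 3 that were lower in S100a16KO+/-, where 19.2% and 18.6% of all tested genes (37.9% together) were so separated.

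**Figure D1:**
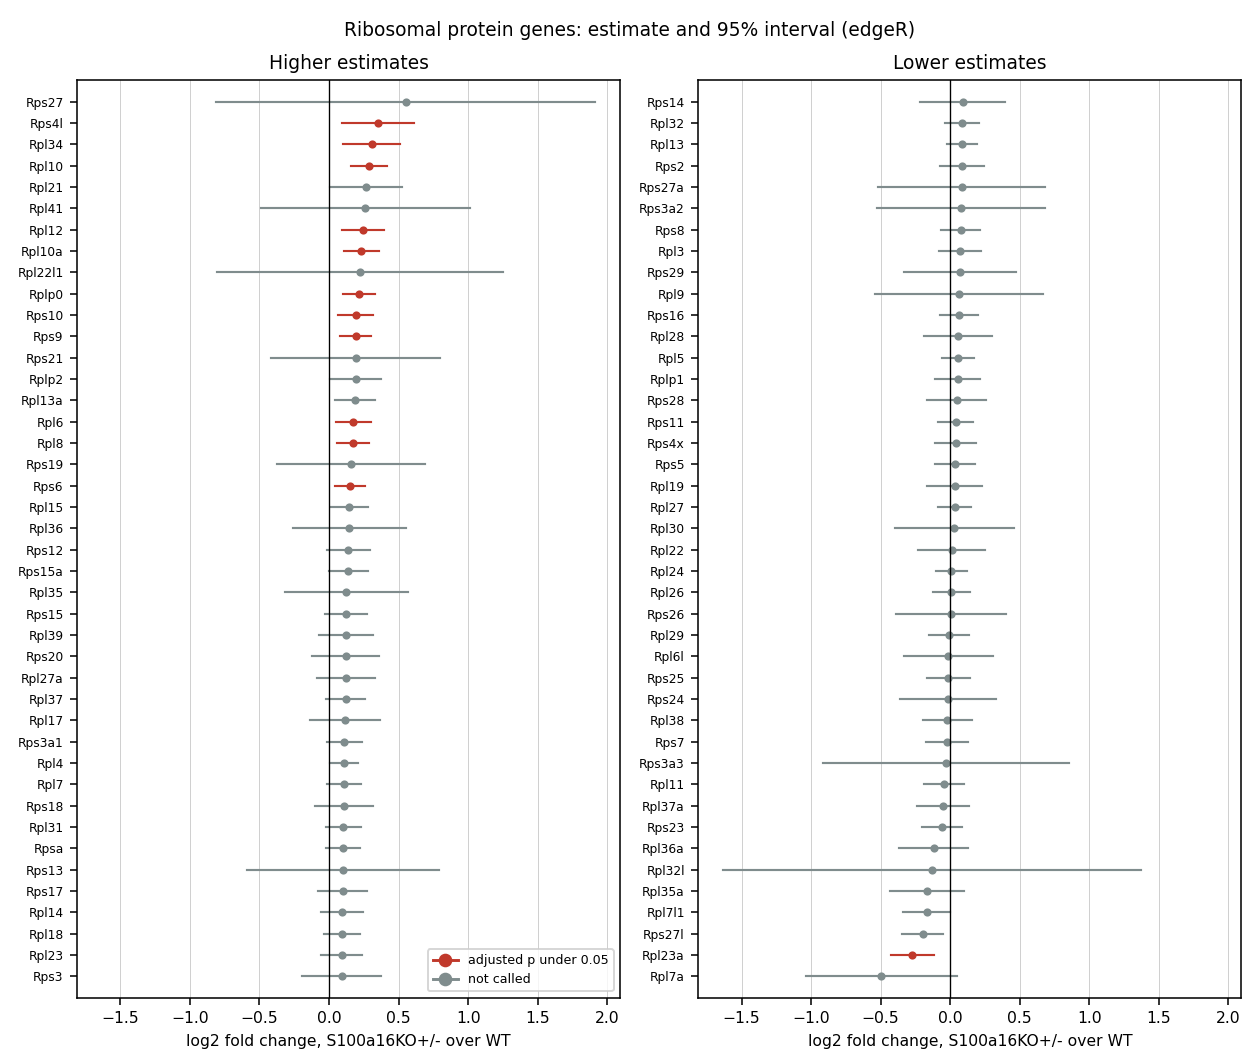
Log2 fold change of S100a16KO+/- over WT (x axis) for 84 of the 85 tested ribosomal protein genes (y axis, by size of the estimate), with 95% intervals as lines; red marks an adjusted p under 0.05. Most points lie a little right of 0, with Rps27, Rpl22l1 and Rpl32l among the widest intervals and Rpl23a the red point left of 0.

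The 40S and 60S subunits gave nearly equal medians. Of 35 tested 40S genes, 4 rose and 0 fell in edgeR (11.4%, median log2 fold change 0.09), and 5 had an unadjusted p under 0.05. Of 50 tested 60S genes, 8 rose and 1 fell (18.0%), with a median of 0.09, and 14 had an unadjusted p under 0.05. Of all tested genes 22.8% were called, 11.6% higher and 11.2% lower, and 33.6% had an unadjusted p under 0.05. The count of called ribosomal protein genes depended on which libraries were used, more than the median did. Without WT replicate 1, WT replicate 2 or S100a16KO+/- replicate 1 it was 7, 2 and 6, where 18.6%, 17.0% and 17.7% of all tested genes were called. Without S100a16KO+/- replicate 2 it was 16, against 19.9% of all tested genes. The median log2 fold change stayed between 0.05 and 0.13 in 22 alternative settings. With limma on log2(FPKM + 1) and no filter on low values none was called, where 5.33% of all 25718 genes were. With a minimum mean FPKM of 1 the count was 5, where 24.6% of the 9054 genes that passed this minimum were called.

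Rpl10 (ENSMUSG00000008682, chromosome X from 74270812 to 74273135) showed the smallest adjusted p. It encodes a 60S protein close to the catalytic center that joins the subunit late, in the cytoplasm. Its level was 227, 240.2 and 249 CPM in WT and 299, 267 and 308 CPM in S100a16KO+/- libraries. Every S100a16KO+/- library was above every WT library, with replicate 2 the lowest of its group. The log2 fold change was 0.29 (SE 0.06, edgeR adjusted p = 0.00327), and the call held without any single library, with a largest adjusted p of 0.0239. Over the 22 alternative settings the Rpl10 call held in 19, and that of Rpl10a, described next, in 20.

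Rplp0 and Rpl10a, both of the 60S subunit, rose by similar steps. Rplp0 (ENSMUSG00000067274, chromosome 5 from 115559467 to 115563727) is the base of the stalk, on which Rplp1 and Rplp2 sit, and is often used as a reference gene in qPCR. It had 250.2, 227 and 248 CPM in WT and 275, 289.5 and 278 CPM in S100a16KO+/- libraries, without overlap (log2 fold change 0.22, SE 0.05, edgeR adjusted p = 0.00841). Rpl10a, of the L1 stalk next to the exit site for tRNA, had 133, 122 and 137 CPM in WT and 148, 160.3 and 152 CPM in S100a16KO+/- libraries (0.23, SE 0.06, adjusted p = 0.0108). Here too the groups were apart. In both genes WT replicate 2 was the lowest library, and without it the adjusted p rose to 0.0619 for Rplp0 and 0.0717 for Rpl10a. Without any other single library both calls held.

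Rpl12, Rpl34, Rpl8 and Rpl6, also of the 60S subunit and called higher, were closer to the threshold. Rpl12, a protein of the stalk base, had 84.5, 82.6 and 96.5 CPM in WT and 108, 96.2 and 109 CPM in S100a16KO+/- libraries, so that S100a16KO+/- replicate 2 and WT replicate 3 overlapped (0.25, SE 0.07, adjusted p = 0.0205). Rpl34 had 31.3, 28.6 and 37.0 CPM against 42.8, 35.8 and 41.1 CPM, with the same overlap (0.31, SE 0.09, adjusted p = 0.0322). Rpl8, which lies near the catalytic center, had 143, 151 and 152 CPM against 174, 161 and 167 CPM (0.17, SE 0.05, adjusted p = 0.0334), and Rpl6 rose by 0.17 (SE 0.06, adjusted p = 0.0481), in both cases without overlap. Each was called in at most 2 of the 6 fits that leave out 1 library, and the largest adjusted p was 0.109 for Rpl12, 0.139 for Rpl34, 0.16 for Rpl8 and 0.228 for Rpl6. Rpl12 and Rpl34 were not called without WT replicate 1 or 2 or S100a16KO+/- replicate 1 or 3. Rpl8 was called only without S100a16KO+/- replicate 2 among these fits, and Rpl6 only without WT replicate 1.

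In the 40S subunit, 4 genes rose. Rps9, which takes part in decoding accuracy, had 119, 121 and 127 CPM in WT and 143, 136 and 139.8 CPM in S100a16KO+/- libraries (0.19, SE 0.05, adjusted p = 0.0171). Rps6, whose protein is phosphorylated by S6 kinases downstream of mTORC1, had 208, 193 and 202 CPM against 220.0, 222 and 228 CPM (0.15, SE 0.05, adjusted p = 0.0425). In both the genotypes did not overlap. Rps10 had 58.1, 57.6 and 60.1 CPM against 64.8, 71.2 and 64.9 CPM (0.19, SE 0.06, adjusted p = 0.0279). Rps4l, the transcribed pseudogene, gave the largest estimate of the called genes but the lowest level, 6.43, 6.15 and 6.18 CPM against 8.67, 8.11 and 7.19 CPM (0.35, SE 0.12, adjusted p = 0.0483). It overlaps the gene Tmtc1 on the other strand. Rps4l and Rps6 were called in 1, Rps10 in 2 and Rps9 in 3 of the 6 fits that leave out 1 library. All 4 lost the call without WT replicate 2.

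Rpl23a (ENSMUSG00000058546, chromosome 11 from 78180932 to 78183077), a protein at the exit of the peptide tunnel where signal recognition particle binds, was the gene called lower. It had 81.3, 67.9 and 74.0 CPM in WT and 59.0, 66.1 and 59.5 CPM in S100a16KO+/- libraries. The groups were apart, with WT replicate 2 and S100a16KO+/- replicate 2 close to each other. The log2 fold change was -0.27 (SE 0.07, edgeR adjusted p = 0.0129), with a largest adjusted p of 0.0642 when 1 library was left out. The call was lost without WT replicate 1, S100a16KO+/- replicate 1 or S100a16KO+/- replicate 3.

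**Figure D2:**
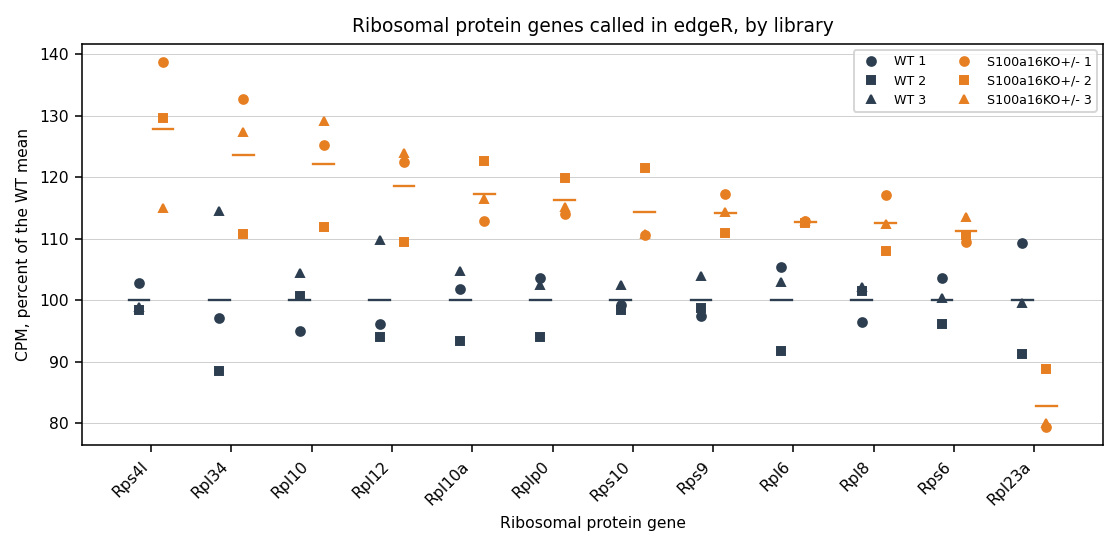
TMM-scaled CPM of 12 of the 13 called genes (x axis) in each library, as a percent of the WT mean of the gene (y axis); dark symbols are WT and orange symbols S100a16KO+/- libraries, shapes give the replicate and short lines the group means. S100a16KO+/- replicate 2 is the highest library for Rpl10a, Rplp0 and Rps10 and the lowest of its group for Rpl10, Rpl12, Rpl34, Rps9, Rpl6 and Rpl8, and Rpl23a is the gene below 100.

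Of the other stalk proteins and Rpsa, none passed the test. Rplp2 had 53.3, 63.5 and 64.5 CPM in WT and 73.5, 61.3 and 71.9 CPM in S100a16KO+/- libraries (log2 fold change 0.19, edgeR adjusted p = 0.129). Rpsa, the 40S protein also known as the laminin receptor, had 326, 289 and 303 CPM against 310.5, 339 and 336 CPM (0.10, adjusted p = 0.241). In both genes the groups overlapped. The 4 genes Rplp0, Rplp1, Rplp2 and Rpsa all had estimates above 0.

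Paralogs can replace the standard protein in the ribosome or act outside it, and except for Rps4l none of those tested passed the test. Rps27l, a p53 target gene and like form of Rps27, had 47.8, 51.0 and 56.1 CPM in WT and 46.3, 42.4 and 46.5 CPM in S100a16KO+/- libraries. Every S100a16KO+/- value was below every WT value, and the log2 fold change of -0.20 (SE 0.07) missed the threshold with an adjusted p of 0.0518 (edgeR). Its level against that of Rps27 cannot be read from the FPKM. Reads inside the coding part of Rps27 cannot be told apart from those of a copy with the same coding sequence. Rpl7l1, a nucleolar assembly factor related to Rpl7, had an estimate of -0.17 (adjusted p = 0.15) and Rpl7 one of 0.11 (adjusted p = 0.212). Rpl22l1 had 10.9, 17.0 and 18.6 CPM in WT and 21.4, 10.7 and 22.3 CPM in S100a16KO+/- libraries. The lowest library of each genotype, WT replicate 1 and S100a16KO+/- replicate 2, stood well below the others, and the estimate of 0.22 had an SE of 0.38 (adjusted p = 0.758), against 0.01 (adjusted p = 0.958) for Rpl22. Rpl6l (-0.01, adjusted p = 0.963) and Rpl32l (-0.13, adjusted p = 0.926) did not pass, nor did Rpl32 (0.09, adjusted p = 0.323), Rpl3 (0.07, adjusted p = 0.537) or Rps4x (0.04, adjusted p = 0.741), the X-linked parent of Rps4l. Differences between a paralog and its parent were not tested.

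Within each genotype the libraries varied from each other more in these genes than in others of the same abundance. Among the 73 ribosomal protein genes that averaged 32 CPM or more, the typical (median) coefficient of variation was 7.35% in WT and 7.39% in S100a16KO+/- hepatocytes, against 4.30% and 4.84% in the 2708 other genes of that level. The odd library was not the same in every gene. WT replicate 1 was lower than the mean of WT replicates 2 and 3 for 46 of the 73 genes (63.0%). S100a16KO+/- replicate 2 was lower than the mean of replicates 1 and 3 for 48 (65.8%), and 41 genes were low in both. Among the 2708 other genes of that level these counts were 1329 (49.1%), 1323 (48.9%) and 972. Across the 73 genes the log2 ratios of the 2 libraries correlated with r = 0.71, against 0.38 across the 2708 other genes. This is a description only. The 2 libraries were picked after the values of the ribosomal protein genes were seen, and genes of a library are not independent of each other.

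The genes low in both libraries included Rps19 and Rpl9. Rps19, the gene most often mutated in Diamond-Blackfan anemia, had 44.3, 58.1 and 62.7 CPM in WT and 67.9, 47.9 and 68.3 CPM in S100a16KO+/- libraries. Rpl9 had 70.2, 97.9 and 103 CPM against 104, 73.0 and 105 CPM. In both genes the same 2 libraries stood apart. The opposite pattern was seen for Rps24, with 129, 95.0 and 104 CPM in WT and 98.1, 125 and 101 CPM in S100a16KO+/- libraries, and for Rps26, with 97.6, 74.9 and 81.6 CPM against 78.1, 103 and 74.3 CPM. These 4 genes were chosen after their values were seen. The 2 libraries also had the highest mitochondrial share of counts (21.1% and 20.1%, against 17.0% to 18.6%) and the lowest TMM factors (0.951 and 0.948, against 1.01 to 1.04). Transcript length correlated with the 2 ratios by r = 0.20 and 0.06 over the 73 genes and GC content by r = -0.04 and 0.08. The part of any of these in the pattern was not tested. Across the 81 tested mitochondrial ribosomal protein genes r was -0.05. These genes were not limited to 32 CPM or more. All 83 of them summed to 1226 to 1305 CPM in WT and 1180 to 1229 CPM in S100a16KO+/- libraries. Whether a lower level hides such a pattern was not tested.

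**Figure D3:**
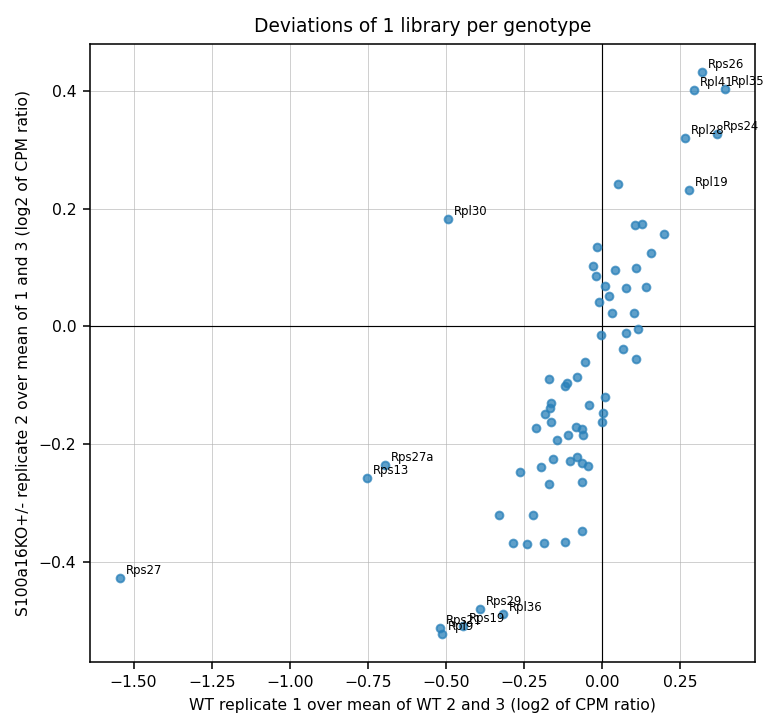
Log2 ratio of TMM-scaled CPM in WT replicate 1 to the mean of WT replicates 2 and 3 (x axis) and in S100a16KO+/- replicate 2 to the mean of replicates 1 and 3 (y axis) for 72 of the 73 ribosomal protein genes that averaged 32 CPM or more. Points fall along a rising line with Rps27, Rps13, Rps27a and Rpl30 to its left, and 41 genes are below 0 on both axes.

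Without these 2 libraries, a choice made after seeing the data that leaves 2 libraries a genotype, 17 of the tested ribosomal protein genes were called, 15 higher and 2 lower, against 21.1% of all tested genes, 10.3% higher and 10.8% lower. The median log2 fold change was 0.09, as with 6 libraries. Rplp2, Rps3a1, Rpl36, Rpl13a and Rpl22l1 were then called higher and Rps27l lower, while Rps10 and Rps4l were not called.

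Many ribosomal protein genes share sequence with processed copies elsewhere in the genome, and both the genes and the copies had estimated counts. Over the 87 genes, a median of 24.2% of the 31-base words of their transcripts also occurred in other genes. Of the genes in the table, 590 were taken as copies, of 80 ribosomal protein genes, because at least 20% of the words of a transcript matched. The copies held 12.2% to 13.9% of the counts of genes and copies together, and WT replicate 1 and S100a16KO+/- replicate 2 had the highest shares, 13.9% and 13.4%. For 34 genes the copies held over 10% of the summed counts, among them Rpl21 (88.9%), Rpl17 (81.3%), Rpl7a (79.3%) and Rpl23a (44.4%). How the deposited counts treated reads that match several places is not given in the sources used here.

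Rps27, of the 40S subunit, gave the clearest example. Its copy Rps27rt is a retrogene on chromosome 9 from 114982366 to 114982739 (minus strand), and Rps27 lies on chromosome 3 from 90212522 to 90213648 (minus strand). The coding sequences are shown because they decide which reads can be told apart. That of Rps27rt has the same 255 bases as that of Rps27 and is not repeated. Capitals in Rps27l, on chromosome 9 from 66946086 to 66949516 (plus strand), mark the 61 bases that differ from Rps27 at the same position (GENCODE transcripts on GRCm38).
Rps27: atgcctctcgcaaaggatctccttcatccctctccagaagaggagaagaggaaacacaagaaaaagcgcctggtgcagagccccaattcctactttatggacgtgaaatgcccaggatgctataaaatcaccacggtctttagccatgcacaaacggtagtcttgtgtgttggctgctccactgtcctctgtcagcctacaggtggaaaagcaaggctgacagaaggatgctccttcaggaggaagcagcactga
Rps27l: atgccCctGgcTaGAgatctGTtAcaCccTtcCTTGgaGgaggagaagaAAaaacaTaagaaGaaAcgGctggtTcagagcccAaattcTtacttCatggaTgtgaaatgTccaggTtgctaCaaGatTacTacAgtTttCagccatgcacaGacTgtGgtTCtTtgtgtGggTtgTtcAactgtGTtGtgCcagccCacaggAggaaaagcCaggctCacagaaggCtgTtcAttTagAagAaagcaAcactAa
The longest stretch that Rps27l shares with Rps27 in the same place is 11 bases, an identity of 76.1%, so reads of these 2 genes are separable over the coding part. Reads inside the coding part of Rps27 and Rps27rt are not.

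Alone, Rps27 had 1288, 3272 and 4340 counts in WT and 4680, 3286 and 5036 counts in S100a16KO+/- libraries. WT replicate 1 stood far below the rest, and the log2 fold change of 0.55, the largest estimate of all 85 genes, had an SE of 0.50 (edgeR adjusted p = 0.541). Rps27rt had 2841, 1005 and 327 counts in WT and 850, 1188 and 695 counts in S100a16KO+/- libraries. It was highest where Rps27 was lowest, with 68.8% of the pair's counts in WT replicate 1 and 7.01% to 26.6% in the other libraries. Summed, the pair had 4129, 4277 and 4667 counts in WT and 5530, 4474 and 5731 counts in S100a16KO+/- libraries. With all its copies and on the TMM scale, Rps27 reached a mean of 63.3 ± 4.41 CPM in the WT group and 76.5 ± 5.87 CPM in the other (SD, n = 3), a log2 fold change of 0.28 (SE 0.07) that passed the test with an adjusted p of 0.00946.

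**Figure D4:**
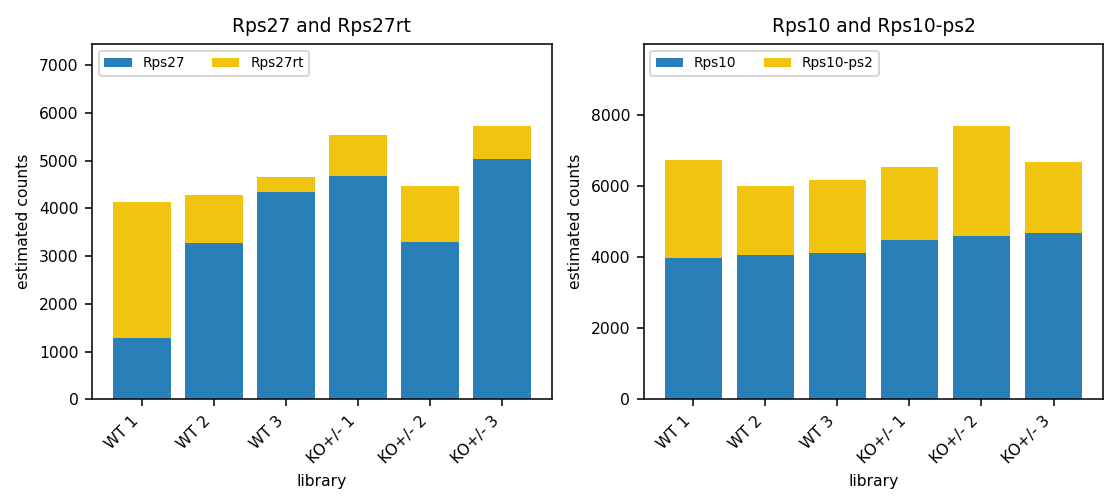
Estimated counts (y axis) in each library (x axis) of Rps27 with Rps27rt on the left and Rps10 with Rps10-ps2 on the right, stacked. Rps27rt takes most of the Rps27 column in WT replicate 1, and Rps10-ps2 takes 40.9% and 40.4% of the Rps10 columns in WT replicate 1 and S100a16KO+/- replicate 2, against 29.9% to 33.2% in the others.

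With every gene summed with its copies, an alternative added after the data were seen, 10 ribosomal protein genes were called, all higher, against 23.4% of all genes so tested, 11.9% higher and 11.5% lower. Of 9 genes called both ways, those described here are Rpl10, Rpl10a, Rpl12, Rpl8, Rplp0, Rps4l, Rps6 and Rps9. For some of these the sum could hardly differ from the gene alone. Rps4l had 0 copies, and copies held 0.003% of the summed counts for Rpl8 and 0.357% for Rps9. Their calls with copies are therefore no separate check. Rps27 was called with its copies only. Rpl23a, Rpl34, Rpl6 and Rps10 were called alone and not with their copies. For Rpl23a the fall shrank to -0.11 (SE 0.07, edgeR adjusted p = 0.296): the sum was 135, 117 and 129 CPM in WT and 113, 129 and 110.4 CPM in S100a16KO+/- libraries, which overlapped. Rpl7a, which alone had the lowest estimate (-0.50, SE 0.21, adjusted p = 0.18) from 54.5, 48.1 and 49.9 CPM in WT and 44.0, 38.1 and 26.0 CPM in S100a16KO+/- libraries, came to 0.06 (adjusted p = 0.561). The median over the 85 genes was 0.08 and 71 were above 0. The match between the deviations of WT replicate 1 and S100a16KO+/- replicate 2 was closer on the summed values, with r = 0.92 over the 73 genes.

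**Figure D5:**
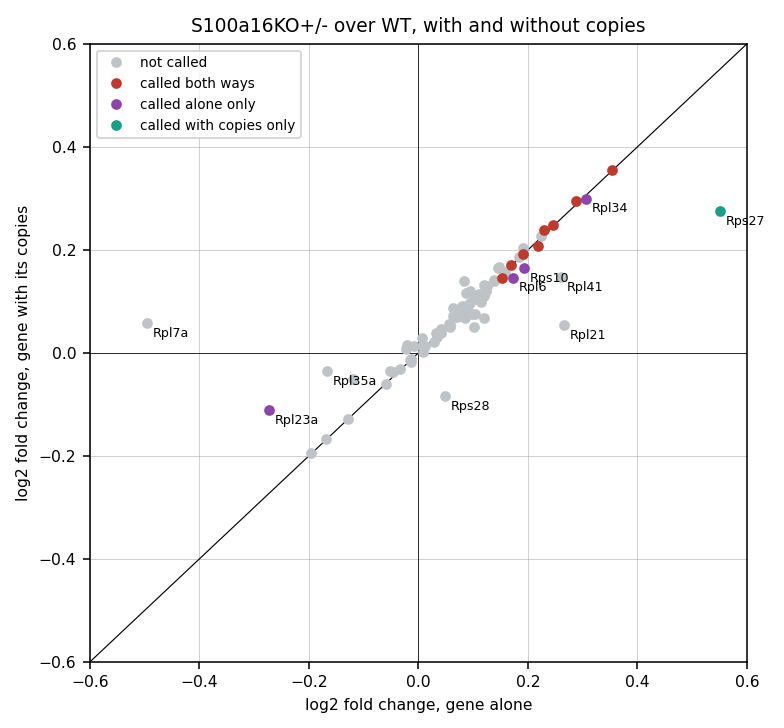
Log2 fold change of S100a16KO+/- over WT for 84 of the 85 tested ribosomal protein genes alone (x axis) and summed with their copies (y axis), with the line of equal values. Rps27, Rpl21, Rpl7a and Rpl23a lie farthest from the line, and 8 of the genes drawn are called both ways.

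The other genes of the translation machinery, on lists written with earlier results of these data known, moved in small and mixed ways. Of 7 elongation factor genes 2 rose and 1 fell (median log2 fold change 0.02), and of 29 initiation factor genes 3 rose and 4 fell (0.03). The called shares were 42.9% and 24.1%, where 22.8% of all tested genes were called. Eef2, the translocase that moves the ribosome along mRNA, rose from 809, 831 and 802 CPM in WT to 1037, 1093 and 1037 CPM in S100a16KO+/- libraries, without overlap (0.37, SE 0.05, edgeR adjusted p = 2.85e-05). Eif4b, which helps the helicase of the cap-binding complex, rose by 0.25 (adjusted p = 0.00239), and Eif1, which guards start codon choice, was lower at -0.27 (adjusted p = 0.0094). Eef1e1, an auxiliary protein of the tRNA synthetase complex, was lower at -0.50 (adjusted p = 0.0444). Eef2 and Eif4b kept their calls without any single library. Eif1 lost its call without WT replicate 2 or 3 (adjusted p = 0.0559 and 0.0544), and Eef1e1 kept it in 1 of these 6 fits, without S100a16KO+/- replicate 1.

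Among 23 other transcripts known to begin with a TOP motif, 6 rose and 0 fell in edgeR (median log2 fold change 0.07), and 8 had an unadjusted p under 0.05. The called share of 26.1% was near the 22.8% of all tested genes, of which 11.6% were called higher and 11.2% lower. An unadjusted p under 0.05 was reached by 33.6% of all tested genes. The list shares Eef2, Eif4b and Npm1 with the other lists. Npm1, a nucleolar chaperone, rose from 82.9, 74.0 and 75.5 CPM in WT to 101, 100.4 and 102 CPM in S100a16KO+/- libraries (0.38, SE 0.06, edgeR adjusted p = 0.000203) and kept its call without any single library. Snhg8, a snoRNA host gene, rose by 0.69 (SE 0.22, adjusted p = 0.0336) and lost the call without WT replicate 1 or 2 or S100a16KO+/- replicate 1 or 3. Vim, an intermediate filament gene of mesenchymal and endothelial cells, whose markers rose as given above, rose by 0.66, and the part of those cells in it was not tested. Vim was chosen after its value was seen. Of 4 other ribosome component genes 1 (25.0%) rose, Rpl36al (0.20, adjusted p = 0.0443), and it lost the call without the same 4 libraries.

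The genes that build ribosomes had estimates mostly under 0. Of 60 biogenesis factor genes 1 rose (Npm1) and 4 fell in edgeR, at a median log2 fold change of -0.07, with 19 of the 60 above 0. The called share was 8.33%, against 22.8% of all tested genes. Dkc1, the pseudouridine synthase of small nucleolar particles, was lower at -0.42 (adjusted p = 0.0236) and was called in 1 of 6 fits without 1 library, that without S100a16KO+/- replicate 1. Of 7 chaperones of ribosomal proteins 2 fell, among them Tsr2, the escort of Rps26, from 5.02, 5.88 and 5.73 CPM in WT to 2.92, 4.08 and 4.21 CPM in S100a16KO+/- libraries (-0.57, adjusted p = 0.0231). That call was lost without WT replicate 2 or 3 or S100a16KO+/- replicate 1. Of 15 RNA polymerase I genes 2 fell, among them Twistnb, a polymerase subunit (-0.55, adjusted p = 0.00309). Of 21 mTORC1 and TOP regulators 2 rose and 3 fell, and of 17 quality control and recycling genes 2 rose and 1 fell. The called shares were 28.6% for the chaperones and 13.3% for the polymerase I genes. They were 23.8% for the regulators and 17.6% for the quality control genes.

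The regulators of mTORC1 included the largest change on these lists. Ddit4 (REDD1), a stress-induced inhibitor of mTORC1, fell from 17.6, 19.0 and 18.1 CPM in WT to 8.72, 8.67 and 8.27 CPM in S100a16KO+/- libraries (-1.09, SE 0.09, edgeR adjusted p = 5.57e-07). Sesn1, another inhibitor, rose from 7.13, 6.42 and 6.72 CPM to 9.24, 10.1 and 9.79 CPM (0.52, SE 0.11, adjusted p = 0.00306). The 2 inhibitors thus differed in direction. Among the quality control genes Nemf, which tags peptides on stalled 60S subunits, rose by 0.33 (adjusted p = 0.00542) and Usp10, a deubiquitinase of 40S proteins, was lower at -0.35 (adjusted p = 0.00292). Twistnb, Ddit4, Sesn1, Nemf and Usp10 kept their calls without any single library.

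Mitochondrial ribosomal proteins, which form the ribosome of the organelle, were the closest family for comparison. Of 81 tested genes 0 rose and 3 fell in edgeR (3.70%, against 22.8% of all tested genes). An unadjusted p under 0.05 was reached by 22, against 33.6% of all tested genes. The median log2 fold change was -0.09 with 20 above 0. For the cytosolic ribosomal protein genes these values were 0.09 and 68 of 85. Mrps28 was lower at -0.36 (SE 0.11, adjusted p = 0.0271) and was called without WT replicate 1 but not without any other single library. The difference between the 2 families was not tested.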

How the data were processed

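RNA of 6 primary hepatocyte libraries, 3 WT and 3 S100a16KO+/-, was poly(A)-selected, read as pairs and, per the labels, built with molecular identifiers in a strand-marking (dUTP) protocol. For each gene and library, the files that the authors deposited give an estimated count and FPKM. The deposited estimated counts are whole numbers that carry about 4 counts per fragment. FPKM were scaled by length and depth by the authors. The submitters' processing notes name cutadapt 1.9, HISAT2 2.0.4, UMI-tools, StringTie 1.3.4d, DESeq2, edgeR and mm10, without roles or order. The annotation release and the treatment of reads with several matches are not given in the sources used here. Of the 87 genes, 75 had the position GENCODE gives on GRCm38, 35 overlap another gene on the same strand and 20 one on the other strand. Whether strand was used in counting is not given, so overlapping genes are uncertain.

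Genes were grouped by genotype from the labels. All genes that passed filterByExpr (15957) were fitted with edgeR 4.0.16 (R 4.3.3; TMM, glmQLFit robust, glmQLFTest, two-sided, Benjamini-Hochberg, adjusted p under 0.05) with no covariate. Lists were described by counts and medians. Log2 fold changes are those of the fit. Named genes were the 6 largest rises and falls among called ribosomal protein genes, the 5 of highest mean FPKM, paralogs with their parents, the stalk genes and Rpsa, the largest called rise and fall of each list, and S100a16. The other called genes, those with copies and those of the library pattern were named after their values were seen. 1 called gene is counted but not reported here by name or drawn. The genes and lists were chosen with earlier results of these data known. Copies were genes of which at least 20% of the 31-base words of a transcript occurred in the ribosomal protein gene, by GENCODE transcripts.

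The fit was tested on simulated data. Alternatives were DESeq2 1.42.0, limma 3.58.1 (voom, and with trend on log2(FPKM + 1) or log2(FPKM + 0.1)), other scalings and filters, the replicate number as a block, and leaving out each library. Leaving out 2 libraries, counts divided by 4 and copies summed were added after the data were seen. Floors and intervals cover counting error only where they come from counts.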

Additional observations from a re-analysis of the deposited data

How the results depend on the processing

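For the cytosolic ribosomal protein genes, 13 were called; the count was 5 (4 higher, 1 lower) with scaling to the library total, 5 with limma on log2(FPKM + 1) or log2(FPKM + 0.1) at a mean FPKM of at least 1, 0 with limma on log2(FPKM + 1) and no filter, 2 at an adjusted p under 0.01, 0 at an unadjusted p under 0.05 with a fold change of at least 2, and from 2 to 16 when 1 library was left out. DESeq2 called 15, limma voom 12 and the fit without WT replicate 1 and S100a16KO+/- replicate 2 17. Of all genes tested in each fit, 22.8% were called in the main fit and 17.9% with scaling to the library total. With no filter on low counts it was 13.8%. The FPKM fits called 24.6% and 24.4% with a minimum and 5.33% without one. DESeq2 called 24.2%, limma voom 23.0%, the fit without the 2 libraries 21.1%, and with copies summed as well 21.7%. Without 1 library 16.5% to 19.9% were called, and 4.52% met the unadjusted criterion in the main fit. For the 40S genes, 4 were called; the count was 0 with scaling to the library total, 2 with no filter on low counts, 1 in either FPKM fit with a minimum, 0 without a minimum, 0 to 4 without 1 library, and 7 with copies summed and without WT replicate 1 and S100a16KO+/- replicate 2. For the 60S genes, 9 were called; the count was 5 with scaling to the library total, 4 in either FPKM fit with a minimum, 0 without one and 2 to 12 without 1 library. For S100a16KO+/- against WT, all genes, 3643 were called; the count was 2228 and 2208 in the FPKM fits with pseudocounts 1 and 0.1 and 1370 with no filter. The cause of these differences was not tested. The median of all genes moved by less than 0.1 in every scaling, and no value of a named gene that was called changed sign.

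With the replicate block 8 of the cytosolic ribosomal protein genes were called (6 higher, 2 lower), 0 of the 40S genes, where 19.3% of all tested genes were called. No source states that replicate numbers pair the samples. Over all genes, deviations of same-numbered libraries correlated with r = -0.006, -0.016 and 0.0005. The value for WT replicate 1 and S100a16KO+/- replicate 2, which deviated together in the ribosomal protein genes, was also near 0 (0.003). The values over all genes therefore cannot show whether samples were paired. Among the ribosomal protein genes r was -0.45, -0.54 and 0.25, and 0.62 between WT replicate 1 and S100a16KO+/- replicate 2, so the libraries did not all correlate best with their own number. With 3 libraries a genotype, the smallest called change of a ribosomal protein gene was 0.15 on the log2 scale (Rps6).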
